A study of Mus musculus with 26 samples.

Results

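Tnni2, Tnni3 and Tnnc1 encode the fast skeletal troponin I, the cardiac troponin I and the troponin C that cardiac and slow skeletal muscle share. Every probe set annotated to these genes on the 2 array designs was taken, which gave 3 of 13179 probe sets, 1 for each gene, among 6137 genes named on the arrays. The genes were listed with their difference between null and wild-type hearts already known, so those differences are given as a description without p-values. A fit to all probe sets, given below, also covered them, but its calls are no independent test of these genes. Whole hearts were taken from 13 mouse embryos at embryonic day 12.5, and the total RNA of each was hybridised to an A and a B array. The line lacks the NK2-specific domain of Nkx2.5, a cardiac homeobox gene, and the hearts were labelled wild-type (wt, 5 hearts numbered 1, 2, 7, 9 and N1), heterozygous (het, 4 hearts, 5, 6, 12 and N2) or null (4 hearts, 3, 4, 8 and N3) for that deletion. The labels name no strain, sex, litter or date, so p-values measure only the spread between these hearts.

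Troponin is the calcium switch of the thin filament of striated muscle. Troponin C binds calcium, troponin I holds back the interaction of actin with myosin until calcium arrives, and troponin T anchors the complex to tropomyosin. Each subunit has isoforms made from separate genes; the heart replaces the slow skeletal troponin I of the embryo by the cardiac one as it matures, whereas the fast skeletal isoforms belong to fast skeletal muscle fibres. The probe set of Tnni2 is of a design that may also detect related genes of its family, and those of Tnni3 and Tnnc1 are of a design shared by similar transcripts.

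The promoters of both cardiac members are shown because Nkx2.5 is a DNA-binding factor. They are the RefSeq sequences (GRCm38.p6) from 250 bases before to 50 bases after the start. Tnni3 lies on chromosome 7 at 4518305 to 4522718 and its promoter window at chr7:4522479-4522778 on the minus strand. The start used for this window lies inside the span of the gene, not at its end at 4522718. Most of the Tnni3 window therefore lies within that span. Tnnc1 lies on chromosome 14 at 31208312 to 31211729 and its window at chr14:31208062-31208361 on the plus strand. Capitals mark matches, on either strand, to the letters GATAA, to the letters CATTCC and to the letters TATANA.
Tnni3: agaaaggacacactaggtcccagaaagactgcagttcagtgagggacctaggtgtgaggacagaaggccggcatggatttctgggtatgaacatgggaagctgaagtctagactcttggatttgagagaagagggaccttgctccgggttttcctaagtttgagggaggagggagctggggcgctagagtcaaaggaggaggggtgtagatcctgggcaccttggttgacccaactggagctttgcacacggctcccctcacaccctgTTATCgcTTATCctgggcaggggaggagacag
Tnnc1: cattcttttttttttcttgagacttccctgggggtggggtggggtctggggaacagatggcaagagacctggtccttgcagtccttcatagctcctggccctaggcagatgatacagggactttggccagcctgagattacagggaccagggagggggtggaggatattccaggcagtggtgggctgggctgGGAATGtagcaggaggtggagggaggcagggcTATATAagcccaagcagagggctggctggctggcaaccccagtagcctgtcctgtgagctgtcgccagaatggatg

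The Tnni3 window holds GATAA, the core of GATA factor sites, 2 times as its reverse complement TTATC, 18 and 25 bases beyond the start used for the window. Of 32851 promoter windows of the same length, 25.4% hold it. The Tnnc1 window holds CATTCC, the letters bound by TEAD factors, 1 time as its reverse complement GGAATG (14.7% of windows), and TATANA, the TATA box letters, 1 time (24.7% of windows). TNAAGTG, the letters that NK2 factors bind, occurs 0 times in both windows and in 11.5% of all windows. CANNTG, the E-box, occurs 1 time in Tnni3 and 2 times in Tnnc1 and is held by 72.3% of windows. A loose form of the CArG box, the site of serum response factor, occurs 1 time in each and is held by 73.3% of windows. All motifs were searched on both strands, and a match is a description of the letters. Tnni2 lies on chromosome 7 at 142441816 to 142444410 and is shown by name only.

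The signal of a probe set is an intensity on the linear scale as deposited. A probe set was counted as above background when its intensity exceeded the floor, which is 2 times the noise of its array table (887 on A and 1373 on B). All 3 members were above the floor in every heart with a value. Blank cells left Tnni2 with 10 hearts, Tnni3 with 12 and Tnnc1 with 9. Over the 1232 A and 1278 B probe sets without blank cells, the share above the floor was 46.8% to 51.9% on the A and 30.7% to 35.8% on the B arrays. Gapdh control probe sets at both ends of the transcript gauge how intact the RNA was. Their A array log2 ratio, 3' end over 5' end, ran from -0.26 to -0.077 in wt, from -0.053 to 0.10 in het and from -0.18 to -0.10 in null hearts, so it was higher in every het heart than in any wt heart. The label of the tissue was checked on cardiomyocyte markers: all 8 of their probe sets (Tnnt2, Myl4, Myl2, Myh6 and Actc1) exceeded the floor on at least 4 arrays. Of the liver and neuron marker probe sets, 0 of 6 and 0 of 3 did. Both probe sets of the liver marker Afp exceeded the floor in 2 of 13 hearts.

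Fast skeletal troponin I was the member with the widest distance between genotypes. Tnni2 read 2290 in wt heart 2, 993 in heart 7, 1201 in heart 9 and 1316 in heart N1. It read 3055 in het heart 5 and 2213 in het heart 12. It read 4959 in null heart 3, 4184 in heart 4, 2997 in heart 8 and 9144 in heart N3. Every null heart lay above every wt heart. The het hearts lay between them and touched both: het heart 12 was below wt heart 2, and het heart 5 was above null heart 8.

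Tnni2 averaged 1450 ± 576 (SD, n = 4) in wt, 2634 ± 596 (n = 2) in het and 5321 ± 2673 (n = 4) in null hearts. The log2 difference of null minus wt was 1.83 ± 0.33 (SE), or 3.55-fold. It was the largest positive difference among the 4494 probe sets tested, whose median was -0.0063. Null and wt hearts failed to overlap in this direction in 1.13% of the tested probe sets, and in 0.616% of the 1624 probe sets that had 4 values in each group. In the limma fit to all probe sets, 0.0223% were called at an adjusted p below 0.05 between null and wt hearts, and the called probe set was not 1 of the 3 members. The spread of Tnni2 was also wide within null hearts, with a coefficient of variation of 50.2% against 39.7% in wt hearts. Without null heart N3, the difference was 1.52.

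**Figure D1:**
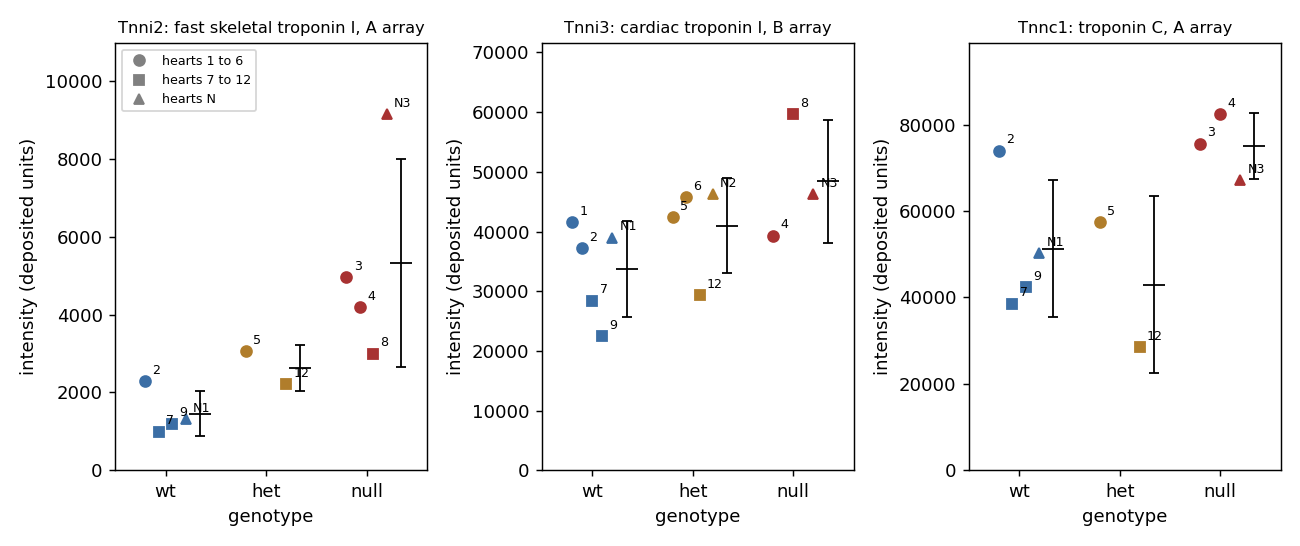
Intensity of Tnni2, Tnni3 and Tnnc1 (y axes, deposited linear units, each from 0) in each heart by genotype (x axis). Points are hearts with their numbers, symbols give the range of heart numbers, and the bar beside each group is the mean with 1 SD. The 4 null hearts lie above the 4 wt hearts for Tnni2, between 2997 and 9144 against 993 to 2290, while the groups overlap for Tnni3 and Tnnc1.

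Het hearts were not part of the contrast that chose the genes, although it shares the wt hearts. Het minus wt was 0.92 ± 0.40 for Tnni2 (95% interval 0.055 to 1.78, unadjusted p = 0.0387), and it failed the correction with an adjusted p of 0.981 in limma. It was among the 10 highest of 4494 differences. Of the 2 het hearts, 1 lay above all wt hearts, and the groups failed to overlap in this direction in 2.67% of probe sets. That share pools probe sets with differing numbers of values, and none was counted for 2 het and 4 wt values. The A array Gapdh ratio also separated het from wt hearts, while on the B array it overlapped (-0.15 to 0.061 in wt and -0.22 to 0.0096 in het hearts). The ratio of the beta-actin control overlapped on both arrays, but its highest value on each was that of a het heart. On A it ran from -0.19 to 0.56 in wt hearts and from 0.074 to 1.002 in het hearts. On B it ran from -0.24 to 0.47 in wt hearts and from -0.27 to 1.026 in het hearts. The part of these measures in the Tnni2 values was not tested. Null minus het was 0.91 ± 0.40 with an adjusted p of 0.79, and 3 of 4 null hearts lay above both het hearts. In both contrasts 0% of the probe sets were called in limma, with 152 and 260 at an unadjusted p below 0.05. So the order of the Tnni2 levels was wt, het, null, and neither step between neighbours passed the test.

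Cardiac troponin I, which takes over from the embryonic slow isoform as the heart matures, had overlapping genotypes. Tnni3 read 41538 in wt heart 1, 37270 in heart 2, 28426 in heart 7, 22474 in heart 9 and 38974 in heart N1. It read 42480 in het heart 5, 45754 in heart 6, 29348 in heart 12 and 46314 in heart N2. It read 39328 in null heart 4, 59611 in heart 8 and 46333 in heart N3, and null heart 3 was blank. Null heart 8 was the highest and wt heart 9 the lowest, and null heart 4 lay below wt heart 1. The B arrays of wt hearts 9 and N1 were mostly blank, with 71.4% of their cells empty.

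Means of Tnni3 were 33736 ± 7997 (SD, n = 5) in wt, 40974 ± 7933 (n = 4) in het and 48424 ± 10302 (n = 3) in null hearts. The log2 difference of null minus wt was 0.54 ± 0.25 (SE), a level that 58 of 4494 probe sets reached. Het minus wt was 0.29 ± 0.23 (95% interval -0.20 to 0.78, adjusted p = 0.981 in limma). Null minus het was 0.24 ± 0.26 (95% interval -0.31 to 0.80, adjusted p = 0.91). It was 0.082 without null heart 8, 0.090 without het heart 12, 0.38 without null heart 4 and 0.053 after quantile scaling. These intervals include 0 and also differences above 0.7, so equal levels were not shown either. The Tnni3 null minus wt difference ranged from 0.38 to 0.68 when 1 heart was left out, the lowest value being that without null heart 8. Without the mostly blank arrays null minus wt was 0.43 and het minus wt 0.19.

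Troponin C of heart and slow muscle had its highest values in null hearts and its lowest in a het heart. Tnnc1 read 74027 in wt heart 2, 38610 in heart 7, 42458 in heart 9 and 50200 in heart N1. It read 57484 in het heart 5 and 28437 in het heart 12. It read 75613 in null heart 3, 82378 in heart 4 and 67210 in heart N3, and null heart 8 was blank. Null heart N3 lay below wt heart 2, so null and wt hearts overlapped, while all 3 null hearts lay above both het hearts.

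The Tnnc1 mean was 51324 ± 15884 (SD, n = 4) in wt, 42961 ± 20540 (n = 2) in het and 75067 ± 7599 (n = 3) in null hearts. Null minus wt was 0.59 ± 0.26 (SE) on the log2 scale. Null minus het, which shares the null hearts with the contrast that chose the genes, was 0.89 ± 0.31 on the log2 scale. It had an unadjusted p of 0.014 and an adjusted p of 0.774 in limma, and 16 of 4494 probe sets reached this difference. It was 0.38 without het heart 12, 1.40 without het heart 5 and 0.59 with the range of heart numbers, described next, as a block. Null hearts failed to overlap het hearts in this direction in 4.07% of probe sets. That share pools probe sets with differing numbers of values. Separation comes more easily with 3 null and 2 het values, and no share was counted for such probe sets. Het minus wt was -0.30 ± 0.30 (95% interval -0.94 to 0.34, adjusted p = 0.981), and without het heart 12 it was 0.21. On the A array the summed signal of blood markers was higher in the same null hearts. Of 10 erythroid marker probe sets 6 exceeded the floor on at least 4 arrays, and the summed signal of the 4 on the A array was 95112 to 138920 in wt, 66065 to 120483 in het and 142815 to 187217 in null hearts. On the B array the sum of the other 6 was 73137 to 442824 in wt, 71283 to 156894 in het and 130116 to 293538 in null hearts, and overlapped. Epb42 and 1 of 3 Hbb-y probe sets were above the floor in 0 hearts. The summed signal of the 4 cardiomyocyte marker probe sets on the A array was 176387 to 238559 in wt and 159686 to 196056 in het hearts. In null hearts it was 209847 to 273741, which overlapped wt. The part of blood or cardiomyocyte signal in the Tnnc1 values was not tested. The order of the levels was het, wt, null. The step from het to wt did not pass the test. For the step from wt to null, the contrast that chose the genes, no p-value is given.

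Tnnc1 differed by the range of the heart numbers, and whether by more than between genotypes was not tested. Hearts 1 to 6 averaged 72376 (n = 4) and hearts 7 to 12 and N averaged 45383 (n = 5). With genotype in the model the later hearts were lower by a log2 difference of -0.65 ± 0.15, which passed with an adjusted p of 0.0271 in limma, as did 7.14% of all probe sets. This grouping was chosen with earlier results of these data known, and the labels do not say what the numbers stand for. Of the null hearts with a Tnnc1 value 2 of 3 had numbers 1 to 6, against 1 of 4 wt hearts. Within hearts 1 to 6 the Tnnc1 null minus wt difference was 0.092, and between hearts N3 and N1 it was 0.42. With the range of heart numbers as a block it was 0.19, and after quantile scaling 0.27, in place of 0.59.

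The range effect of the other members did not pass the test, and whether it differed from that of Tnnc1 was not tested. Later minus earlier hearts was -0.34 ± 0.30 (adjusted p = 0.508) for Tnni2 and -0.17 ± 0.19 (adjusted p = 0.61) for Tnni3 in limma. Null minus wt for Tnni2 was 0.99 within hearts 1 to 6, 1.46 within hearts 7 to 12 and 2.80 between hearts N3 and N1, and 1.67 with the block. For Tnni3 it was -0.00066 within hearts 1 to 6, 1.24 within hearts 7 to 12 and 0.25 between hearts N3 and N1. Each of these within-range values rests on 1 or 2 hearts a genotype.

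**Figure D2:**
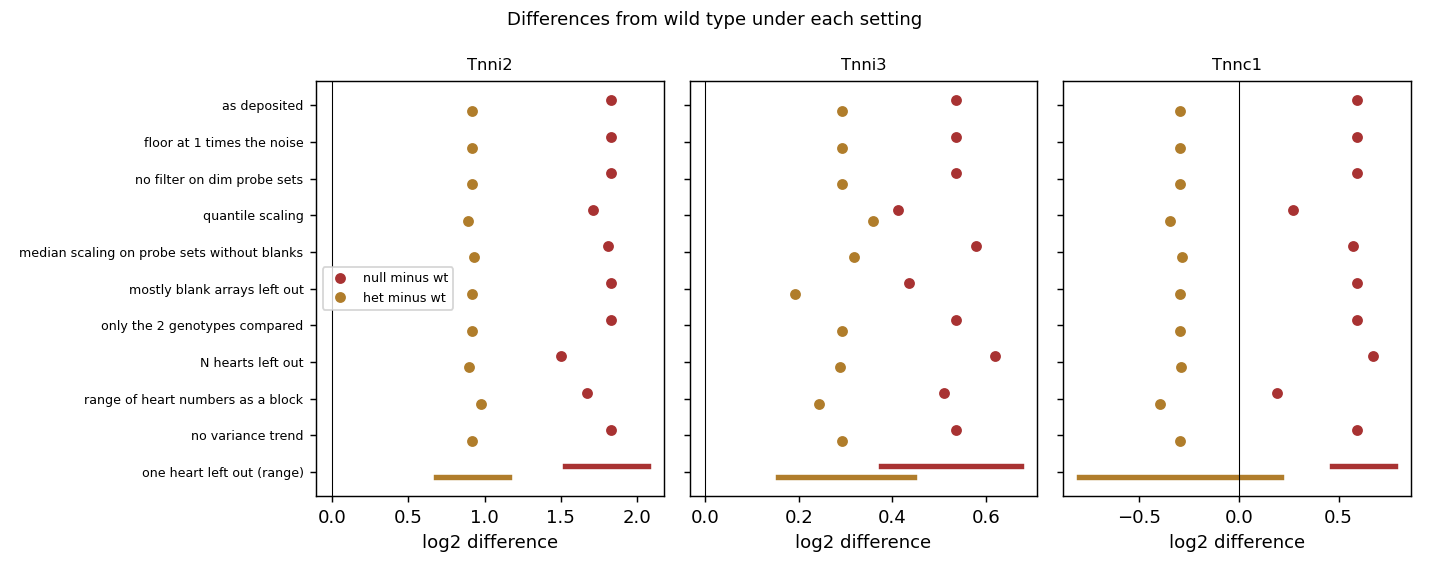
Log2 differences (x axes) of null minus wt and het minus wt hearts for Tnni2, Tnni3 and Tnnc1 under each setting (y axis), with the range over leaving out 1 heart as a line. Tnni2 stays between 1.50 and 2.07 for null minus wt, while Tnnc1 drops from 0.59 to 0.19 with the range of heart numbers as a block.

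A ratio of 2 probe sets of the same array does not depend on a single factor by which that array was multiplied. Tnni2 was set against Tnnt2, the cardiac troponin T, which was also on the A array. The log2 ratio was -4.36, -4.90, -4.39 and -4.89 in wt hearts 2, 7, 9 and N1. It was -3.55 and -3.81 in het hearts 5 and 12, and -2.89, -3.69, -3.31 and -2.27 in null hearts 3, 4, 8 and N3. All wt hearts lay below all het and null hearts. How often ratios of other probe sets separate these hearts was not counted, here or for the ratios below. The genes were also chosen with the null against wt difference known. Null minus wt was 1.60, given as a description. Het minus wt was 0.95 (exact two-sided permutation p = 0.133, the smallest that 2 against 4 hearts can give).

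The ratio of Tnni2 to Tnnc1, also within the A array, averaged -5.17 ± 0.12 (SD, n = 4) in wt, -3.96 ± 0.39 (n = 2) in het and -3.70 ± 0.74 (n = 3) in null hearts. Here too the wt hearts lay below all others, and het minus wt was 1.21 (exact permutation p = 0.133, again the smallest possible). The wt hearts were close together in this ratio, from -5.28 to -5.01, although the Tnni2 intensity of wt heart 2 was well above that of the others. The ratio to Tnni3 crosses from the A to the B array and was more scattered. It averaged -4.49 ± 0.43 (n = 4) in wt, -3.76 ± 0.048 (n = 2) in het and -3.30 ± 0.99 (n = 3) in null hearts, and null heart 8 at -4.31 lay within the wt range. Het minus wt was 0.73 (exact permutation p = 0.133). The choice of Tnnt2 and Tnnc1 as partners was made after it was seen that Tnni3 was on the other array.

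**Figure D3:**
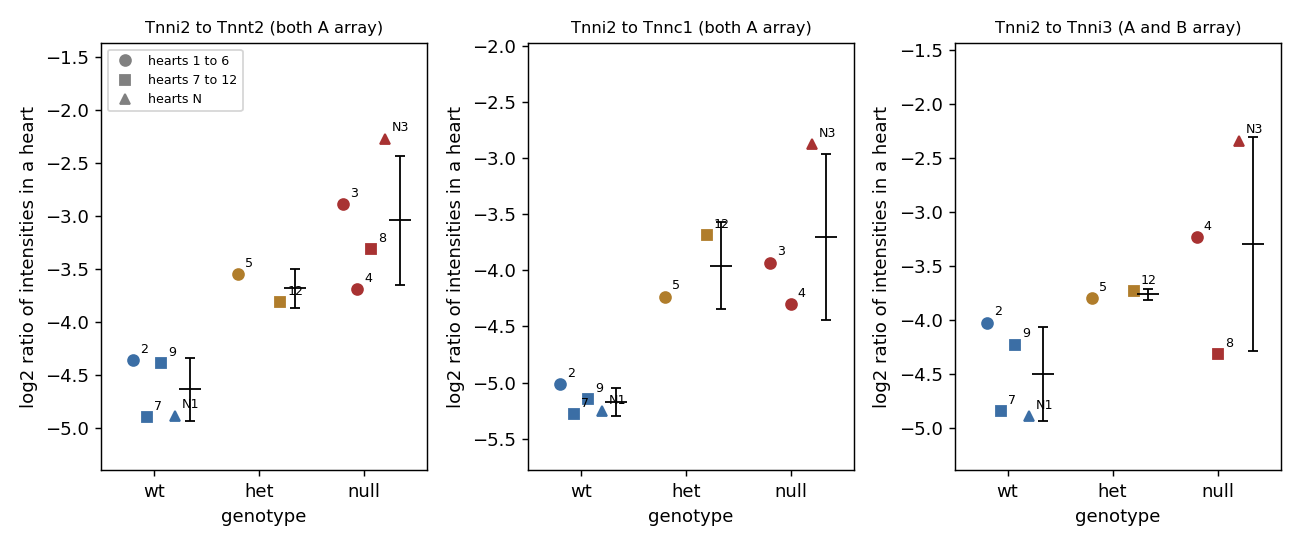
Log2 ratio of the Tnni2 intensity to that of Tnnt2, Tnnc1 and Tnni3 (y axes) in each heart by genotype (x axis). Points are hearts, symbols give the range of heart numbers, and bars are the mean with 1 SD. For Tnnt2 and Tnnc1 all wt hearts, at -4.36 or lower and -5.01 or lower, lie below all het and null hearts, while for Tnni3 null heart 8 lies at -4.31 among the wt hearts. No share over ratios of other probe sets was counted.

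Deviations from the genotype mean show how the members varied together apart from genotype. Over 8 hearts Tnni3 and Tnnc1 had a Pearson r of 0.69 (permutation p = 0.0602, adjusted p = 0.181 over 3 pairs) and a Spearman rho of 0.71 (permutation p = 0.0576, adjusted p = 0.173). Without the 2 hearts farthest from the median of Tnni3, wt hearts 9 and N1, r was 0.85. Tnni2 and Tnnc1 had r = 0.53 (permutation p = 0.141, adjusted p = 0.212) and rho = 0.53 (permutation p = 0.148, adjusted p = 0.222) over 9 hearts, and r = 0.61 without wt heart 2 and null heart N3. Tnni2 and Tnni3 had r = 0.19 (permutation p = 0.616, adjusted p = 0.616) and rho = 0.15 (permutation p = 0.703, adjusted p = 0.703) over 9 hearts, and r = 0.066 without the same 2 hearts. No pair passed the correction. The permutations shuffled deviations freely across genotypes, although those of a genotype cancel out, so these p-values are only approximate. The range of heart numbers was not removed from the deviations.

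The 3 other troponin genes with a probe set were Tnnt2, Tnnt3 and Tnnc2, all on the A array. Tnnt2, the troponin T of heart muscle, read 47153, 29692, 25211 and 38907 in wt hearts 2, 7, 9 and N1. It read 35825 and 31088 in het hearts 5 and 12, and 36641, 54031, 29717 and 43992 in null hearts 3, 4, 8 and N3. The groups overlapped. Null minus wt was 0.23 ± 0.22 (95% interval -0.23 to 0.69) and het minus wt -0.037 ± 0.26 on the log2 scale, with adjusted p-values of 0.9999 and 0.9986 in limma. Null minus wt was 0.081 without wt heart 9 and 0.085 without null heart 4, but 0.38 without wt heart 2 and 0.37 without null heart 8. It was 0.078 after quantile scaling and 0.092 with the range of heart numbers as a block.

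Tnnt3, the fast skeletal troponin T, was not well above background in any wt or het heart. It read -11.1, -78.5, -27.6 and 73.1 in wt hearts 2, 7, 9 and N1, and 326 and 199 in het hearts 5 and 12. It read 756 in null heart 3, 112 in heart 4, 720 in heart 8 and 2000 in heart N3. Only null heart N3, which also had the highest Tnni2, exceeded the floor. Every null heart lay above every wt heart, as in 0.828% of the 2175 probe sets with 4 values in each group that did not pass the filter. An exact two-sided permutation test of null against wt gave p = 0.0286, the smallest that 4 against 4 hearts can give. Its adjusted p was 0.171 over 6 comparisons of Tnnt3 and Tnnc2. None of the 6 could have passed at 0.05 with so few hearts, since no other comparison could give a p below 0.0571. The adjusted values therefore decide nothing. Since values below the floor have no firm level, no fold is given.

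Tnnc2, the troponin C of fast skeletal muscle, was below the floor in all 9 hearts with a value. It averaged 390 ± 242 (SD, n = 4) in wt, 628 ± 225 (n = 2) in het and 507 ± 71.8 (n = 3) in null hearts. Null and wt hearts overlapped (exact permutation p = 0.457, adjusted p = 0.549). So of the probe sets for fast skeletal subunits, that of troponin I read above the floor in every heart with a value. That of troponin T did so in 1 heart and that of troponin C in none. The Tnni2 values of wt hearts ran from 993 to 2290, beside the floor of 887. The Tnni2 probe set may also detect related genes of its family, and the slow skeletal troponin I had no probe set. The part of other troponin I transcripts in the Tnni2 values was not tested.

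**Figure D4:**
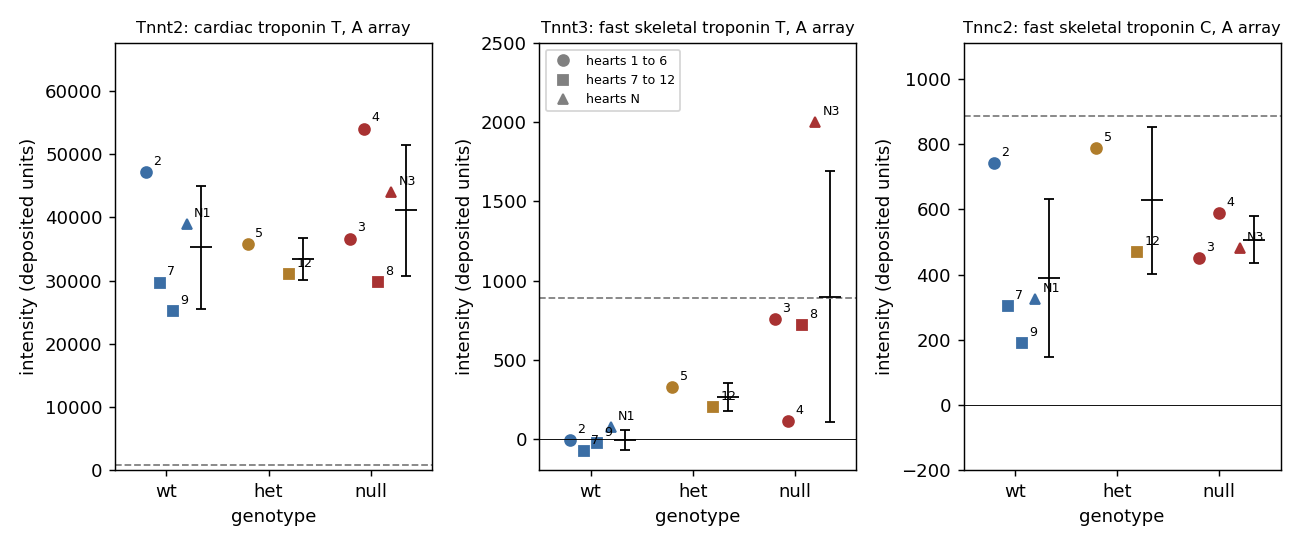
Intensity of Tnnt2, Tnnt3 and Tnnc2 (y axes, deposited linear units) in each heart by genotype (x axis). Points are hearts, bars are the mean with 1 SD, and the dashed line is the floor of 887. Tnnt2 overlaps between genotypes, Tnnt3 exceeds the floor only in null heart N3 at 2000, and Tnnc2 stays below it.

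Markers of skeletal muscle were set beside Tnni2, because embryos also carry that tissue. Of 16 skeletal muscle marker probe sets, covering 11 genes, 4 exceeded the floor on at least 4 arrays: Acta1, Myog and both of Ckm. The embryonic and perinatal myosin heavy chains Myh3 and Myh8, the fast myosin light chain Mylpf, the muscle-determining factors Myod1, Myf5 and Myf6 and the acetylcholine receptor subunit Chrna1 exceeded it in 0 hearts. The 4 did not share 1 direction. Acta1, the skeletal actin that embryonic heart also makes, averaged 16047 ± 3853 (SD, n = 4) in wt and 9783 ± 2764 (n = 4) in null hearts, the opposite direction to Tnni2 (log2 difference -0.73 ± 0.21, adjusted p = 0.9999 in limma). Myog, the myogenin gene, averaged 728 ± 616 (SD, n = 4) in wt, 1251 ± 287 (n = 2) in het and 1047 ± 1167 (n = 4) in null hearts. Of its 10 values 5 exceeded the floor. Its log2 difference of null minus wt was 0.36 ± 0.29, the direction of Tnni2, although its het mean was the highest. Both probe sets of Ckm, the muscle creatine kinase, stood at -0.44 ± 0.39 and 0.072 ± 0.39. The summed signal of the 7 A array marker probe sets was 14302 to 17151 in 2 wt hearts, 22977 to 23987 in 2 het hearts and 7775 to 16117 in 3 null hearts. Most of this sum was Acta1, which averaged 21307 in het hearts, so it does not gauge skeletal muscle apart from heart. The summed signal of the 9 on the B array was 9369 to 25339 in wt, 8374 to 14767 in het and 12346 to 16488 in null hearts. Whole hearts were measured, so fewer cells of a type and less RNA per cell cannot be told apart.

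Other genes of the pathway are given by lists. All 4 troponin probe sets tested were higher in null than in wt hearts, with a median of 0.56 beside -0.0063 over all 4494 probe sets, of which 2185 were higher. The median of these 4 is set by members chosen on this contrast. Other thin filament genes had 5 of 9 probe sets higher and a median of 0.014. They included the tropomyosin Tpm2 (-0.75 ± 0.26) and the cardiac actin Actc1 (0.76 ± 0.55) on the log2 scale. Cardiac sarcomere and calcium-cycling genes had 10 of 12 probe sets higher and a median of 0.22, which was 0.045 after quantile scaling. They included the ventricular light chain Myl3 (0.60 ± 0.35), the atrial heavy chain Myh6 (0.24 ± 0.15), the calcium pump Atp2a2 (0.20 ± 0.12) and the calcium buffer Casq2 (-0.51 ± 0.31). Fast skeletal muscle genes other than Tnni2 had 30 probe sets, of which only 4, for 3 genes, passed the filter and were tested. Of these, 2 of 4 were higher, with a median of -0.032. They were Myog, both of Ckm and the myosin light chain Myl1 (-0.14 ± 0.29). Myl1 averaged 11720 in wt, 11199 in het and 11361 in null hearts, by a probe set of the design that may also detect related genes. Of the cardiac transcription factors 4 of 7 probe sets were higher with a median of 0.064, including Hand2 (0.62 ± 0.29) and Mef2d (-0.56 ± 0.27). In limma 0 probe sets of any of these lists were called, against 0.0223% of all.

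Between het and wt hearts the troponin probe sets were split, with 2 of 4 higher and a median of 0.13 beside -0.014 over all probe sets. The cardiac sarcomere list had 5 of 12 higher and a median of -0.079, and the fast skeletal list 1 of 4 higher and a median of -0.14.

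The genes whose log2 level over hearts was most like that of each member were listed by Pearson r, as a description of these hearts. For Tnni2 they were Vkorc1 (r = 0.89 over 10 hearts), a vitamin K reductase, Gstm5 (0.87 over 9), a glutathione transferase, Asph (0.84 over 10), Rpl23a (0.80 over 10) and the potassium channel subunit Kcne1 (0.79 over 10). The means of Vkorc1 were 4301 in wt, 5035 in het and 5222 in null hearts. For Tnni3 they were the lactate dehydrogenase Ldha (0.93 over 12), Rpl28 (0.93 over 10), the G protein subunit Gnas (0.91 over 10), Myh6 (0.91 over 10) and Myl3 (0.91 over 12), all on the B array with Tnni3. For Tnnc1 they were the translation factor Eef1a1 (0.98 over 9), the ribosomal genes Rplp0 (0.97 over 9) and Rps15 (0.96 over 9), the embryonic globin Hbb-y (0.97 over 9) and Pdia6 (0.95 over 9), all on the A array with Tnnc1. Genes on the same arrays share the RNA, the hybridisation and the scaling, and 2450 or 2647 probe sets were compared for each member.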

How the data were processed

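The authors deposited 1 intensity per probe set and array on a linear scale, for an A and a B array of each heart. Which software made them is not given in the sources used here. From the values, 10.1% to 29.5% of an array were negative, so a background had been subtracted, and complete arrays shared a trimmed mean of 1500. Blank cells (up to 81.3% of an A and 80.6% of a B array) were treated as missing. Gene symbols came from the platform annotation, updated by gene ID (A: 5551 of 5560 IDs matched; B: 1993 of 2001; RefSeq, GRCm38.p6).

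The noise was the root mean square of the negative values of a table. Intensities were raised to 2 times the noise, then log2 was taken. Non-control probe sets with at least 4 arrays above this floor and 2 values per genotype were fitted with limma 3.58.1 in R 4.3.3, 1 fit per table to all 13 hearts, with a variance trend, two-sided tests and Benjamini-Hochberg adjustment over both tables. Exact permutation tests and correlations used SciPy 1.17.1. The fit was tested on simulated data. The number of arrays limits the precision.

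Members and lists were chosen with earlier results of these data known. List members were named by smallest p, up to 4 per list, and the 5 most similar genes by r over at least 8 hearts. Alternatives changed the floor, filter, scaling, arrays, hearts, block and variance trend. Tnnt3 and Tnnc2 did not pass the filter and were tested outside the fit.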

Additional observations from a re-analysis of the deposited data

How the results depend on the processing

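No paired analysis was possible because the genotypes share no heart numbers. Over 9 other settings and 13 fits that each left out 1 heart, null minus wt stayed positive for Tnni2 (1.50 to 2.07), Tnni3 (0.38 to 0.68) and Tnnc1 (0.19 to 0.78), and no het contrast of a member was called. Fits without het heart 5 or 12 left 1 het value of Tnni2 and Tnnc1, which was assumed to vary like the other genotypes. Het minus wt ran from 0.68 to 1.16 for Tnni2, from 0.16 to 0.45 for Tnni3 and from -0.80 to 0.21 for Tnnc1, which was 0.21 without het heart 12. For Tnnt2 het minus wt was 0.025 without the N hearts or without wt heart N1, 0.066 without het heart 12, and from -0.18 to 0.12 over all fits with 1 heart left out. Null minus het of the ratio of Tnni2 to Tnni3 was -0.0100 without the N hearts, and from -0.0100 (without null heart N3) to 0.98 with 1 heart left out. The cardiac sarcomere median was 0.045 after quantile scaling.

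Probe sets called between null and wt numbered 1 in the reported fit and 2 with the floor at 1 times the noise or with the 2 genotypes alone. They numbered 0 without a filter, after quantile scaling, without mostly blank arrays or without the N hearts, and 4 with the range of heart numbers as a block. With 1 heart left out they ranged from 0 (without wt heart 1, 7 or N1 or null heart 3 or N3) to 3 (without wt heart 2). Het against wt gave 1 without a filter and 0 to 2 with 1 heart left out (most without het heart 12). Null against het gave 1 without a filter, 1 with the block and 0 to 2 with 1 heart left out (most without het heart 12). The causes were not tested.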

Other observations

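Tnni2 and Tnnt3 lie 57 kb apart on chromosome 7, and 5 of the 7 genes that start within 100 kb of Tnni2 had a probe set. Of these Ctsd, a lysosomal protease, averaged 11313 ± 1143 (SD, n = 5) in wt and 15049 ± 3886 (n = 4) in null hearts. Null minus wt was 0.38 ± 0.15 on the log2 scale, with an adjusted p of 0.9999 in limma, which all 4 neighbours tested shared. Lsp1, a leukocyte actin-binding protein between Tnni2 and Tnnt3, stood at 0.17 ± 0.31 by its log2 difference. Syt8, a synaptotagmin, stood at 0.22 ± 0.24 by the probe set above the floor, and the mitochondrial ribosomal gene Mrpl23 at 0.22 ± 0.24. None of these 4 passed the test. Near Tnni3 only Rdh13 had a probe set (0.037 ± 0.090), and near Tnnc1 Stab1 and Phf7 were above the floor in 3 of 12 and 1 of 10 hearts.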
